A study of Mus musculus with 12 samples.

Results

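Long terminal repeat (LTR) elements are the remains of retroviruses that entered the mouse germ line, and the peaks of H3K27ac and of RNA polymerase II that lie on them in microglia were described here. H3K27ac, the acetylation of lysine on histone H3, marks active promoters and enhancers, and Rpb2 is the second largest subunit of RNA polymerase II. A peak was taken as an LTR peak where the deposited annotation of its midpoint named an element of the LTR class, and its family (ERVL-MaLR, ERVK, ERVL or ERV1 for nearly all) was read from the same label. By this rule 3898 of 55862 H3K27ac peaks (6.98%) and 935 of 26706 Rpb2 peaks (3.5%) were LTR peaks. The annotation placed 2391 of the H3K27ac LTR peaks between genes and 1507 in introns, and 438 and 497 of the Rpb2 LTR peaks. None was annotated to an exon or a promoter, since the annotation names a repeat only outside these.

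The study asked how loss of the fractalkine receptor Cx3cr1 changes microglia, and these libraries profiled chromatin by ChIP-seq, which sequences the DNA that an antibody to a chromatin protein pulls down. WT mice were compared with Cx3cr1-KO littermates from crosses of heterozygotes, in which the eGFP gene disrupts both copies of Cx3cr1, so that KO cells also make eGFP and lack the receptor in every tissue. All mice were C57BL/6J and 2 months old, and microglia were sorted as CD11b+CD45lo cells after fixation, in a buffer with the deacetylase inhibitor sodium butyrate. Each library came from a pool of 3 mice of 1 sex, with 1 female and 1 male pool per genotype and mark, so that each genotype had 2 pools. Microglial genes carried their marks: all 7 of P2ry12, Tmem119, Sall1, Csf1r, Cx3cr1, Fcrls and Siglech had a peak of either mark within 1000 bp of the gene start, with summed levels of 519 to 2960 CPM (reads per 1000000 reads of the library) for H3K27ac and 105 to 127 CPM for Rpb2. No peak was listed there for any of the markers of astrocytes, neurons, neutrophils or lymphocytes in either mark. Markers of endothelium had H3K27ac peaks at 2 of 3 genes (summed 15.0 to 92.1 CPM), of border macrophages at 2 of 4 (2.71 to 12.5 CPM), of oligodendrocytes at 2 of 3 (5.4 to 21.9 CPM) and of monocytes at 1 of 3 (3.6 to 26 CPM). For Rpb2, the endothelial gene Kdr had a peak (2.74 and 1.61 CPM in WT, 3.81 and 6.47 CPM in KO), as did the oligodendrocyte gene Mbp (9.26 and 3.15 CPM in WT, 4.38 and 2.48 CPM in KO), and no marker of border macrophages or monocytes did. The part of such cells in the results was not tested.

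Some libraries stood apart. Libraries held 10395804 to 44332626 reads, and in the H3K27ac library of the WT female pool 15.9% of reads fell in peaks, against 61.1% to 65.3% in the other H3K27ac libraries. For Rpb2 the share in peaks ran from 11.2% to 15.1%. The Rpb2 library labelled WT female held 62 reads at Ddx3y, 25 at Eif2s3y and 49 at Uty, genes of the Y chromosome, where the KO female library had 0, so it went against its sex label. It was kept in the WT group, and sexes were not used as a factor in the main test. In these bulk samples, fewer cells that carry a mark and less of the mark per cell cannot be told apart.

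An LTR carries the promoter, enhancer and polyadenylation signals of its retrovirus, and most mouse copies are solitary LTRs left after recombination removed the internal genes (named with the ending -int where they remain). Copies are normally silenced by KRAB zinc finger proteins that recruit Trim28 and the histone methyltransferase Setdb1, and by DNA methylation. In some cell types a fraction of them serves as enhancers or alternative promoters. ERVL-MaLR elements (MT, ORR1, MLT1) are non-autonomous and mostly old, whereas ERVK and ERV1 include the youngest families of the mouse, such as intracisternal A particles and relatives of murine leukaemia virus.

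The sequences of 8 LTR peaks that the results turn on are given as 200 bases around the peak midpoint, on the plus strand of mm10, with matches to the motifs searched (see the paragraph on motifs) in capitals. Each is named by the gene with the nearest start, which lay up to 236820 bp away (Sspn). The first is the one H3K27ac LTR peak that passed the test. The following 2 are Rpb2 peaks of the KO list alone, with more reads in KO. They are followed by 3 copies of RMER19B, an ERVK element, at which Rpb2 was low in KO or among the highest of all LTR peaks. The last 2 are the copies of ORR1E and ORR1D2 with the highest Rpb2 level among those that hold the letters GAGGAAGT, and were chosen after their values were seen.
ORR1E near Slc6a20b, chr9:123595173-123595372: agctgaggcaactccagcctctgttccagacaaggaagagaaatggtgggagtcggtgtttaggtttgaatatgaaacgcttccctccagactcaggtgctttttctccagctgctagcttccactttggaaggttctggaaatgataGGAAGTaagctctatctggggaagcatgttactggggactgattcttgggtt
ORR1A4 near Mapk7, chr11:61498912-61499111: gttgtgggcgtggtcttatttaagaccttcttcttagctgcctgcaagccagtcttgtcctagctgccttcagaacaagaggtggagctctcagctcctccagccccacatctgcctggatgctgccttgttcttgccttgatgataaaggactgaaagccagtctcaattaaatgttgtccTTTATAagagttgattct
ORR1B1 near Klhl25, chr7:75768167-75768366: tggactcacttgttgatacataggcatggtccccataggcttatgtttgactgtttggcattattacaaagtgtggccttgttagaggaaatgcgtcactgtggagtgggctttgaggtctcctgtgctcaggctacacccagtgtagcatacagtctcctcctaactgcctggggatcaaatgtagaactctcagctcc
RMER19B near 1700110C19Rik, chr17:10327825-10328024: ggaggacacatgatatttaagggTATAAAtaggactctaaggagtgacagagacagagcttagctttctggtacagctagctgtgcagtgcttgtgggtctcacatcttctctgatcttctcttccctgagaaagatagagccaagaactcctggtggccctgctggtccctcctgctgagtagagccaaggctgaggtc
RMER19B near AY512915, chr6:95452211-95452410: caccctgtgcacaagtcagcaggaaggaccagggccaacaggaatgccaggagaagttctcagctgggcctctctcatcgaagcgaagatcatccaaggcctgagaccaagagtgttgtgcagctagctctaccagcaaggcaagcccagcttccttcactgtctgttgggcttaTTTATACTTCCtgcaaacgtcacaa
RMER19B near Wdr62, chr7:30282893-30283092: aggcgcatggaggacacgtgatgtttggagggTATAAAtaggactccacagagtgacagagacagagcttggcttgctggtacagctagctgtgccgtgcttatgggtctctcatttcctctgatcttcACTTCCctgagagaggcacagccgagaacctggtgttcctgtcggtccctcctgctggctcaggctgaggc
ORR1E near Sspn, chr6:146170843-146171042: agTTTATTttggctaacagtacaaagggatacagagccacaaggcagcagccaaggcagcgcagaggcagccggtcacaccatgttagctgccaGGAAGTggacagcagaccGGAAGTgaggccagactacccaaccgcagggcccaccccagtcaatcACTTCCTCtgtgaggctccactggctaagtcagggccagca
ORR1D2 near Sf3b1, chr1:55029021-55029220: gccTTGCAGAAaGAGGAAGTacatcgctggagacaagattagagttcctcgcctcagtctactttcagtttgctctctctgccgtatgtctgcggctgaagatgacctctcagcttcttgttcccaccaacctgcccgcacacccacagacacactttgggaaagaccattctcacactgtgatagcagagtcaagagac
The RMER19B copies near 1700110C19Rik and Wdr62 shared a run of 20 identical bases within these windows, and the copy near AY512915 shared at most 10 with either of them. In each of the 8 windows the 51 bases at the midpoint, the length of 1 read, occurred once in the assembled chromosomes of mm10.

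ERVL-MaLR elements made up 1925 of the H3K27ac LTR peaks (49.4%), ERVK 1169 (30.0%), ERVL 457 (11.7%) and ERV1 311 (7.98%). The order was the same for Rpb2, with 499 (53.4%), 263 (28.1%), 100 (10.7%) and 69 (7.38%). The remaining 36 H3K27ac and 4 Rpb2 LTR peaks carried the labels Gypsy, LTR without a family, or a family with a question mark. Among 440 element names at H3K27ac peaks, the most frequent were MTD (269 peaks), ORR1E (147), MTC (125), MTEa (88) and ORR1F (82), all ERVL-MaLR. Among 252 names at Rpb2 peaks they were MTD (71), MTC (32), ORR1E (32), MTEa (30) and ORR1D2 (30). Elements of the IAP group, which are among the most active retrotransposons of the mouse, were at 37 H3K27ac and 9 Rpb2 peaks, and ETn elements at 9 and 0. Internal parts were at 513 (13.2%) and 101 (10.8%) of the LTR peaks.

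**Figure D1:**
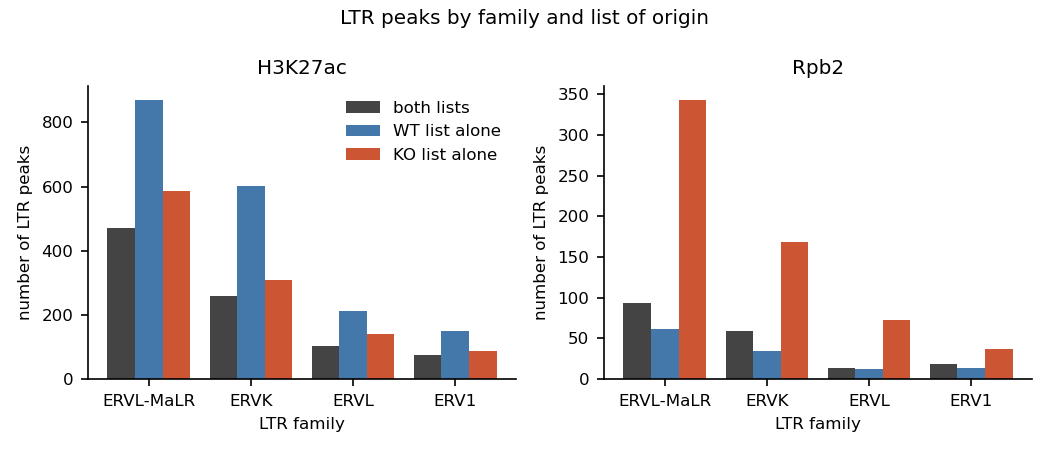
Number of LTR peaks (vertical axis) by LTR family (horizontal axis) for H3K27ac (left) and Rpb2 (right), with bars for peaks named in both the WT and KO peak lists, in the WT list alone and in the KO list alone. In each of the 4 families the WT list alone held the largest number of H3K27ac peaks (870 of 1925 for ERVL-MaLR) and the KO list alone that of Rpb2 peaks (343 of 499).

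The peaks had been called separately for each genotype, and the lists of origin differed for LTR peaks. For H3K27ac, 919 LTR peaks were named in both lists, 1844 in the WT list alone and 1135 in the KO list alone, and for Rpb2 the numbers were 186, 125 and 624. LTR peaks were thus 4.37% of the H3K27ac peaks of both lists but 9.92% of those of the WT list alone and 6.99% of those of the KO list alone. LINE peaks (2.35%, 10.2% and 4.62%) and SINE peaks (5.12%, 8.11% and 8.82%) were also a smaller share of the shared peaks. For Rpb2, LTR peaks were 2.09%, 3.41% and 4.41% of the 3 lists. Shared H3K27ac LTR peaks were broad, with a median width of 1982 bp and a maximum of 36697 bp, whereas peaks of 1 list alone had a median of 501 bp. The LTR label of a broad peak describes its midpoint and not its whole length. Rpb2 LTR peaks were narrow (median 324 bp for both lists). Shared H3K27ac LTR peaks lay at a median of 20002 bp from the nearest transcription start site (TSS), against 6453 bp for all shared peaks, and shared Rpb2 LTR peaks at 15467.5 bp against 243.0 bp. Such a gap follows from the annotation, which names no repeat at promoters. Shared LINE peaks lay at 21306.5 bp (H3K27ac) and 20647 bp (Rpb2), and shared SINE peaks at 13911 and 11790 bp.

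The H3K27ac LTR peaks of the WT list alone were weak and came mostly from 1 library. Their median was 21 reads in the WT female pool and 0.0 reads in each of the WT male, KO female and KO male pools, and 75% of them had no read in the WT male pool. This was the library with 15.9% of its reads in peaks. Its part in the number of peaks of the WT list was not tested. Those of the KO list alone had medians of 8.0 and 6.0 reads in the WT pools and 33.0 and 31.0 in the KO pools. The Rpb2 LTR peaks of the KO list alone had medians of 12.0 and 14.0 reads in the WT pools and 87.0 and 42.0 in the KO pools, with the KO female library the deepest of the 8 analysed. For peaks of 1 list, the direction of the difference follows from how the list was made, so their values are descriptions and support nothing on genotype.

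As a share of the reads of a list, LTR peaks took nearly the same part in the genotypes where the peaks were shared. For H3K27ac the share was 3.25% (female) and 3.77% (male) in the WT pools, and 3.52% and 3.58% in the KO pools. The KO pools lay between the WT pools. For Rpb2 it was 1.6% and 1.51% in WT and 1.55% and 1.55% in KO, again between the WT pools. With 2 pools against 2, an exact permutation test cannot go below p = 0.33, so none was run. Within the LTR reads of the shared peaks, ERVL-MaLR took 50.6% and 50.4% in WT and 50.9% and 50.6% in KO for H3K27ac, and ERVK took 27.2% and 27.1% in WT and 27% and 27.6% in KO. For Rpb2, ERVL-MaLR took 47.1% and 48.6% in WT and 46.8% and 46.5% in KO, and ERV1 took 11.3% and 12.2% in WT and 13.0% and 12.8% in KO.

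**Figure D2:**
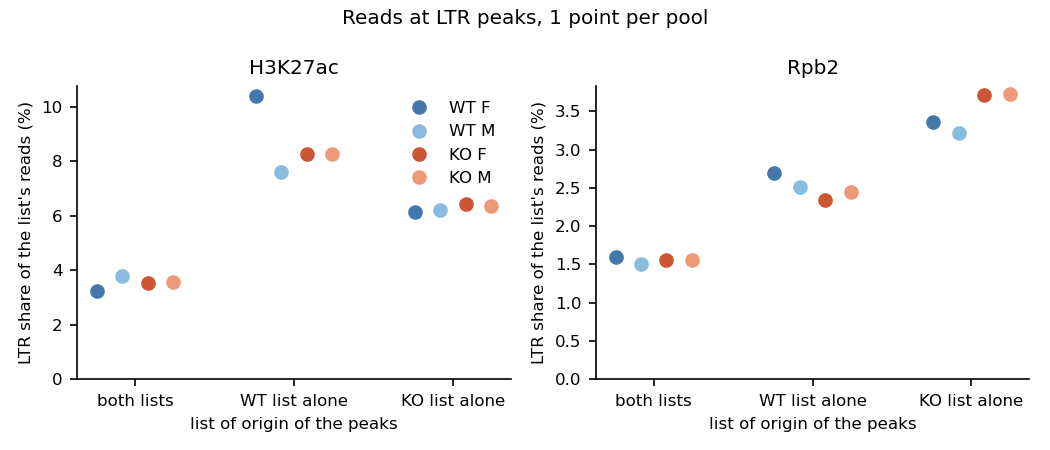
LTR share of the reads in peaks (vertical axis, percent, starting at 0) by list of origin (horizontal axis) for H3K27ac (left) and Rpb2 (right), 1 point for each pool, F and M for the labelled sex. In the peaks of both lists the KO points lie between the WT points (3.25% to 3.77% for H3K27ac, 1.51% to 1.6% for Rpb2), and the WT female pool is highest in the H3K27ac peaks of the WT list alone (10.4%).

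KO and WT were compared over all peaks of a mark with edgeR's quasi-likelihood test, and LTR peaks were read off that fit. Peaks entered the test where either genotype averaged 4 reads or more, which 3887 of the 3898 H3K27ac LTR peaks and all 935 Rpb2 LTR peaks met. The 11 that did not were all from the WT list alone. The 919 shared H3K27ac LTR peaks had a median log2 fold change of KO over WT of 0.04, equal to the 0.04 of all 21033 shared peaks, with quartiles of −0.33 and 0.28. Single pools moved this median, to −0.13 (all shared peaks −0.01) without the WT female pool and to 0.3 (0.14) without the WT male pool. By family the medians were 0.03 for ERVL-MaLR (n = 470), 0.05 for ERVK (n = 259), 0.02 for ERVL (n = 102) and 0.07 for ERV1 (n = 75). Without adjustment, 29 of the 919 (3.16%) were higher in KO at p under 0.05 and 12 (1.31%) were lower, against a background of 2.67% and 1.65% over all shared peaks. WT and KO pools were fully separated at 31.2% of the shared LTR peaks, against 32.1% of all shared peaks. These shares were near the background.

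**Figure D3:**
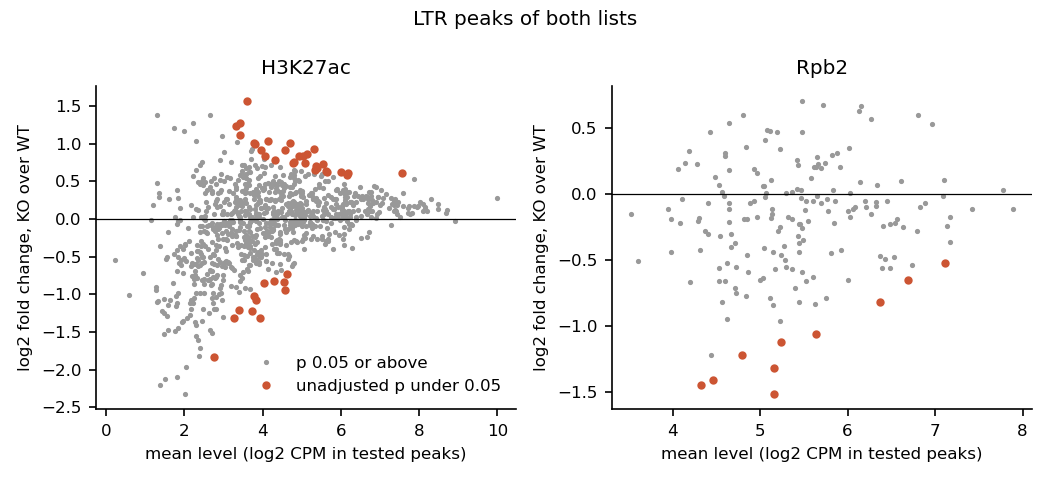
Log2 fold change of KO over WT (vertical axis) against mean level (horizontal axis, log2 CPM relative to the reads in tested peaks) for the 919 H3K27ac (left) and 186 Rpb2 (right) LTR peaks of both lists. Coloured points have an unadjusted p under 0.05 (29 higher and 12 lower for H3K27ac, 10 lower for Rpb2), and none of the points passed the adjusted threshold.

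Of all 55798 tested H3K27ac peaks, 13 (0.0233%) had an adjusted p under 0.05, and 1 of them was an LTR peak. It was a copy of ORR1E on chromosome 9, from 123594216 to 123596328, in an intron, nearest to Slc6a20b (37293 bp from its TSS), a gene for an amino acid transporter. It held 32 reads in the WT female pool and 14 in the WT male pool, and 287 and 383 reads in the KO female and male pools. Normalized to the reads in tested peaks, this was 5.64 ± 4.81 CPM in WT and 26.3 ± 6.32 CPM in KO (SD, n = 2 pools), and both KO pools lay above both WT pools. The difference of KO from WT was 2.29 on the log2 scale (SE 0.46), with a Benjamini-Hochberg adjusted p = 0.00385 in edgeR's quasi-likelihood test. The peak came from the KO list alone, so its direction was partly fixed by the list. The call was lost with either KO pool left out (log2 fold change 2.49 without the female and 2.0 without the male pool, adjusted p = 1.0 in both, edgeR's test) and with DESeq2's prior (1.14, adjusted p = 0.116). With a WT pool left out the call held, but the log2 fold change moved to 3.54 without the female and 1.54 without the male pool. Over the 14 settings that tested the peak its adjusted p ran from 4.67e-07 to 1.0, with a call in 8. Without adjustment, 239 of the 3887 tested LTR peaks reached p under 0.05 (43 with more and 196 with less signal in KO), against 4.95% of all tested peaks, and 184 of the lower ones came from the WT list alone. The number of calls depended on single libraries over the whole table. It was 711 LTR peaks (18.5%, against 14.8% of all tested peaks) without the WT male pool, 40 (1.47%, against 1.53%) without the WT female pool and 0 with either KO pool left out. The spread behind the test was wide, with a common dispersion of 1.28 over all tested peaks against 0.109 in a fit of the shared peaks alone, which called 0 of the 919 (26 at an unadjusted p under 0.05).

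The ORR1E copy lay 3.53 Mb from Cx3cr1, the disrupted gene, on the same chromosome. Within 10 Mb of Cx3cr1, 4 of 34 tested H3K27ac LTR peaks (11.8%) and 4 of 16 Rpb2 LTR peaks (25%) had an unadjusted p under 0.05, against 6.1% and 13.3% elsewhere. Of all tested peaks within this distance, 6.61% of 484 (H3K27ac) and 15.8% of 278 (Rpb2) had such a p, against 4.94% and 12.1% elsewhere. They included 5 of the 13 called H3K27ac peaks and both of the called Rpb2 peaks. Loss of Cx3cr1 and sequence carried along with the targeted allele cannot be told apart near the gene.

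The 5 shared H3K27ac LTR peaks with the lowest p were 4 with more and 1 with less signal in KO, none past the adjusted threshold. A copy of MLT1A between genes on chromosome 7 (122931910 to 122933690, nearest 4930413G21Rik) held 17 (female) and 46 (male) reads in the WT pools, against 218 and 250 in the KO pools. The log2 difference was 1.57 (SE 0.52, adjusted p = 0.768, edgeR's quasi-likelihood test). An ORR1A4 copy upstream of Mapk7, a MAP kinase gene (chromosome 11, 61497202 to 61500580), held 86 and 190 reads in the WT pools, against 593 and 743 in the KO pools (log2 difference 0.93, SE 0.31, adjusted p = 0.768, edgeR). Another ORR1A4 copy, nearest to Jchain, the gene of the immunoglobulin joining chain (chromosome 5, 88517139 to 88519597), had 63 and 197 reads in the WT pools, against 540 and 617 in the KO pools (log2 difference 0.86, SE 0.32, adjusted p = 0.811, edgeR). Both ORR1A4 copies had KO pools above the WT pools. At an RMER6A copy upstream of Prok1, which encodes a secreted prokineticin (chromosome 3, 107251513 to 107254984), the WT pools had 67 and 100 reads and the KO pools 425 and 468 (log2 difference 1.01, SE 0.35, adjusted p = 0.779, edgeR). The RLTR28 copy in an intron near 4921536K21Rik (chromosome 11, 3889959 to 3892297) went the other way, with 96 and 104 reads in the WT pools, 151 and 74 in the KO pools and a log2 difference of −1.32 (SE 0.44, adjusted p = 0.768, edgeR). Without the WT male pool, which leaves 1 WT pool, the log2 difference was 1.93 (MLT1A), 1.11 (ORR1A4 near Mapk7), 1.35 (ORR1A4 near Jchain) and −1.64 (RLTR28). Over all alternatives the adjusted p of each of the 5 reached 1.0. WT and KO pools were fully separated after normalization at each of these 5, which follows from their choice by p. Of all shared H3K27ac peaks, 32.1% were separated.

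Besides ORR1E, the H3K27ac LTR peaks of 1 list with the lowest p were an ORR1B2 copy nearest to Irf2bpl (chromosome 12, 86842397 to 86842897) and an MLT1C copy nearest to Gm5532 (chromosome 1, 155531425 to 155532713), both from the WT list. The ORR1B2 copy held 20 and 86 reads in the WT pools and 11 and 0 in the KO pools (log2 difference −4.49, SE 1.3, adjusted p = 0.587, edgeR), and passed without the WT female pool (−4.99, adjusted p = 0.000526, edgeR). The MLT1C copy held 66 reads in the WT female pool, 0 in the WT male pool and 8 and 0 in KO (adjusted p = 0.643, edgeR), so its difference rested on 1 library, and its log2 difference turned from −4.85 to 4.75 without the WT female pool and was −5.86 (adjusted p = 8.08e-07, edgeR) without the WT male pool. Over all alternatives the adjusted p of either copy reached 1.0.

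The highest H3K27ac LTR peaks were broad regions, and the pools of the genotypes overlapped at each of the 5 highest. The highest, 36697 bp wide with an MTE-int element at its midpoint in an intron of E230029C05Rik, had 2264 and 7512 reads in the WT pools and 14531 and 13997 in the KO pools, or 640 and 1200 CPM and 1100 and 1120 CPM after normalization. Next came a region with RLTR14-int at Siglech, a lectin gene of microglia (362 and 613 CPM in WT, 494 and 462 CPM in KO). It was followed by RMER10A upstream of Ifngr1, which encodes a subunit of the interferon gamma receptor (304 and 504 CPM in WT, 465 and 414 CPM in KO). RLTR9B2 near Zfp658 and ORR1F at Ly86, a gene of the innate immune receptor complex, had 306 and 502 CPM and 261 and 411 CPM in WT, and 424 and 430 CPM and 405 and 366 CPM in KO. At all 5 the WT female pool was lowest and the WT male pool highest. The annotation names no repeat at promoters, and 20 H3K27ac LTR peaks had their midpoint within 1000 bp of a TSS. The highest of these were MER34A at A630001G21Rik, with 52.8 and 39.2 CPM in WT and 53.7 and 52.1 CPM in KO, and MLT1E at Il1r2, the gene of a decoy receptor for interleukin-1, with 38.1 and 34.4 CPM in WT and 57.7 and 42.9 CPM in KO, where both KO pools were above the WT pools (log2 difference 0.47, SE 0.3, adjusted p = 0.811, edgeR). RMER21A at BC051142 had 18.9 and 18.9 CPM in WT and 18.5 and 22.1 CPM in KO, and MLT2F at Hnrnpf, an RNA-binding protein gene, had 8.19 and 25.4 CPM in WT and 14.4 and 8.35 CPM in KO. ORR1D2 at Gm12596 had 20.9 and 24.0 CPM in WT and 10.8 and 19.2 CPM in KO, with the KO pools below the WT pools (log2 difference −0.59, SE 0.4, adjusted p = 0.811, edgeR). Of the smaller families, the highest peaks were RLTR51A_Mm (ERVK?) in an intron of St3gal5, a sialyltransferase gene, with 54.7 ± 8.27 CPM in WT and 63.1 ± 7.33 CPM in KO, and MamGypLTR3 (Gypsy) near Gm19510, with 42.4 ± 16.7 CPM and 41.9 ± 2.96 CPM (SD, n = 2 pools).

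Of all 26706 tested Rpb2 peaks, 2 (0.00749%) had an adjusted p under 0.05, and 0 of the 935 LTR peaks did. At an unadjusted p under 0.05 there were 126 LTR peaks (89 higher, all from the KO list alone, and 37 lower), 13.5% against a background of 12.2%. DESeq2 called 34 LTR peaks without and 39 with its prior (3.64% and 4.17%, against 3.83% and 3.95% of all peaks), and edgeR's newer quasi-likelihood method, an alternative added after seeing the data, called 10 (1.07%, against 1.02%). The test called 106 LTR peaks without the WT female pool (11.3%, against 8.28% of all peaks), 108 without the WT male pool (11.6%, against 7.35%) and 0 with either KO pool left out. The 186 shared Rpb2 LTR peaks had a median log2 fold change of −0.17, equal to the −0.17 of all 8893 shared peaks, and of −0.19 (all shared peaks −0.19) without the library labelled WT female. By family the medians were −0.19 for ERVL-MaLR (n = 94), −0.17 for ERVK (n = 59), −0.16 for ERVL (n = 14) and −0.09 for ERV1 (n = 18). The shift below 0 depended on the set of peaks fitted. In a fit of the shared peaks alone, the medians were 0.01 for LTR peaks and −0.0 for all. With at least 10 reads in every sample both were −0.03. In the main test, 0 of the 186 were higher and 10 (5.38%) were lower in KO at an unadjusted p under 0.05, against 0.742% and 7.71% of all shared peaks. WT and KO pools were fully separated at 31.2% of them, against 40.1% of all shared peaks.

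The 5 shared Rpb2 LTR peaks with the lowest p were all lower in KO, none past the adjusted threshold in edgeR's test. The lowest p was at the intronic RMER19B copy near 1700110C19Rik shown above (chromosome 17, 10327777 to 10328072), with 71 and 77 reads in the WT pools and 86 and 55 in the more deeply sequenced KO pools, or 52.9 ± 3.19 CPM in WT and 18.5 ± 4.11 CPM in KO (SD, n = 2 pools). This was a log2 difference of −1.52 (SE 0.45, adjusted p = 0.23, edgeR's quasi-likelihood test). An MLT1J-int element in an intron near Tlr7, the gene of an endosomal sensor of single-stranded RNA (chromosome X, 167318748 to 167319176), had 76 and 115 reads in the WT pools and 179 and 82 in the KO pools, or 67.4 ± 11.7 CPM and 32.3 ± 0.398 CPM (log2 difference −1.06, SE 0.37, adjusted p = 0.289, edgeR). MamGypLTR1b upstream of Lpin2, a phosphatidate phosphatase gene (chromosome 17, 71178787 to 71179128), was 105 ± 13.8 CPM in WT and 59.7 ± 3.22 CPM in KO (log2 difference −0.82, SE 0.29, adjusted p = 0.292, edgeR). The other two were RLTR44B upstream of the insulin receptor gene Insr, with 64 and 79 reads in the WT pools and 65 and 76 in the KO pools (log2 difference −1.32, SE 0.52), and MLT1C near Gm30726, with 41 and 49 reads in the WT pools and 62 and 33 in the KO pools (log2 difference −1.41, SE 0.56). The RLTR44B value ran from −2.1 without the KO male pool to −0.78 without the KO female pool. At all 5 copies each KO pool was lower than each WT pool, which follows in part from their choice by p. Of all 8893 shared Rpb2 peaks, 40.1% had separated pools, 2662 with KO below and 904 with KO above. Lower values also prevailed among all shared peaks at an unadjusted p under 0.05 in edgeR's test (7.71% lower, 0.742% higher). These shares are from the fit over all peaks, where the median of all shared peaks was −0.17. In a fit of the shared peaks alone that median was −0.0. DESeq2 called 3 of the 5, with adjusted p without and with its prior of 0.0133 and 0.0126 (RMER19B), 0.0442 and 0.0445 (MLT1J-int) and 0.0484 and 0.0481 (MamGypLTR1b), whereas over all alternatives their adjusted p reached 0.896, 0.93 and 0.93.

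Among Rpb2 LTR peaks of 1 list, the 3 with the lowest p had no read in WT. The ORR1B1 copy between genes nearest to Klhl25, which encodes an adaptor of a cullin ubiquitin ligase (chromosome 7, 75768163 to 75768369), held no read in either WT pool and 224 and 105 in the KO pools, at least 19-fold higher with WT set to a floor of 3 reads per library. Its adjusted p was 0.0785 by edgeR, the lowest of all Rpb2 LTR peaks, and ran from 1.25e-09 to 0.557 over 13 settings, with a call in 7. An MTD copy in an intron of another gene, with the TSS of Ikbke, a kinase gene of interferon signalling, as the nearest (chromosome 1, 131368258 to 131368627), had 118 and 41 reads in the KO pools, at least 8.69-fold higher (adjusted p = 0.198, edgeR). An MMERVK9E_I-int element upstream of Prr14, whose product tethers heterochromatin to the nuclear lamina (chromosome 7, 127462834 to 127463147), had 74 and 33 reads in the KO pools, at least 6.11-fold higher (adjusted p = 0.198, edgeR). All 3 were named in the KO list alone, which fixed their direction. Each passed with either WT pool left out, with adjusted p in edgeR's test of 0.000102, 0.00188 and 0.00432 without the WT female pool and 0.000375, 0.00376 and 0.00713 without the WT male pool, and over all alternatives the adjusted p of the MTD and MMERVK9E_I-int copies ran up to 0.846 and 0.93. Of the peaks of the KO list, 9 of 624 LTR peaks and 202 of all 14148 had no read in either WT pool.

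**Figure D4:**
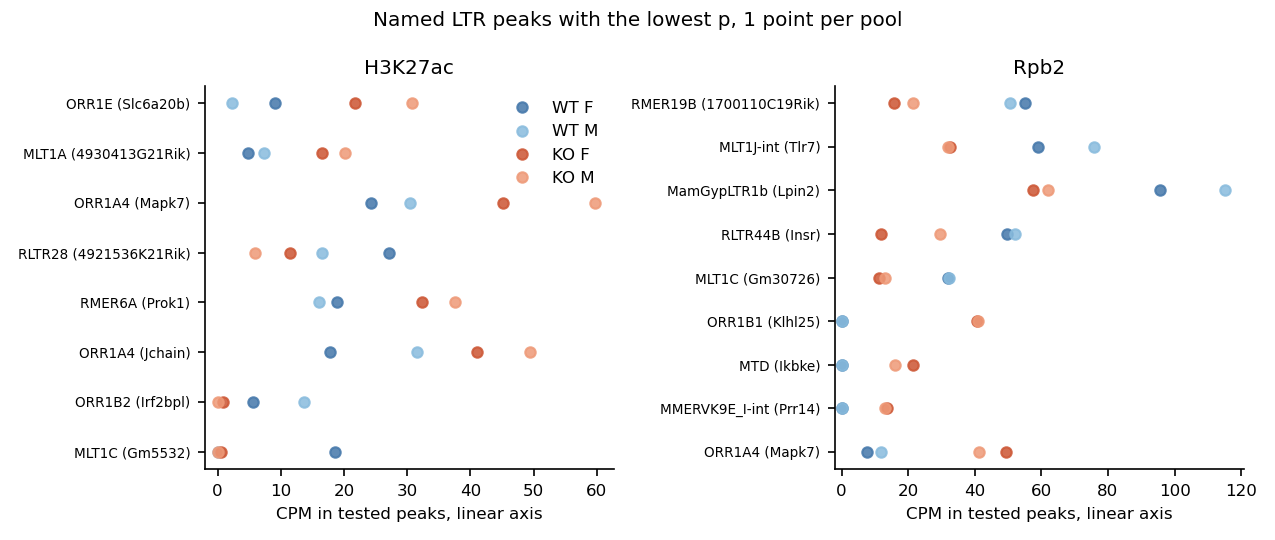
Normalized reads (horizontal axis, CPM relative to the reads in tested peaks, linear) of the named LTR peaks with the lowest p, 1 row per peak with its nearest gene in brackets, H3K27ac left and Rpb2 right, 1 point for each pool. At ORR1E near Slc6a20b the KO pools lie at 21.8 and 30.7 CPM and the WT pools at 9.04 and 2.24 CPM, and the WT points of ORR1B1, MTD and MMERVK9E_I-int lie on each other at 0.

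Of the 5 highest Rpb2 LTR peaks of both lists, the pools of the genotypes overlapped at 3. RLTR4_Mm, an ERV1 element in an intron near 0610039K10Rik (chromosome 2, 163643055 to 163643258), had 314 and 379 reads in the WT pools and 1380 and 525 in the KO pools, or 244 and 250 CPM in WT and 251 and 205 CPM in KO. The RMER19B copies shown above near AY512915 and Wdr62 had 233 and 202 CPM and 208 and 148 CPM in WT, and 202 and 244 CPM and 161 and 169 CPM in KO. RLTR44B near Hapln1 and RMER19A near Ifitm10 had 160 and 144 CPM and 188 and 135 CPM in WT, and 140 and 130 CPM and 128 and 123 CPM in KO, and at these copies the KO pools lay below the WT pools. Of these 5 copies, 4 were ERVK elements. The highest ERVL-MaLR peak, ORR1A2 near Ifitm10, came from the KO list alone although its levels overlapped, with 181 and 150 CPM in WT and 189 and 130 CPM in KO. The printed ORR1E copy near Sspn held 52 and 87 reads in the WT pools and 349 and 133 in the KO pools, and the ORR1D2 copy near Sf3b1, the gene of a splicing factor subunit, 199 and 150 and then 514 and 204. Midpoints of 8 Rpb2 LTR peaks lay within 1000 bp of a TSS, and WT and KO pools overlapped at the 5 highest of them. MER34A at A630001G21Rik, the highest also for H3K27ac, had 49.8 and 68.5 CPM in WT and 63.8 and 49.9 CPM in KO. It was followed by MMVL30-int at Rnf180 (50.6 ± 12.2 CPM in WT and 39.6 ± 17.9 CPM in KO) and MLT1E2 at Ube2g2 (38.9 ± 17.6 and 46.9 ± 8.18 CPM), both genes of the ubiquitin system, RMER6A at Larp4 (33.1 ± 6.19 and 30.7 ± 10.0 CPM) and RMER10A at 2610528A11Rik (32.6 ± 21 and 16.7 ± 2.63 CPM; SD, n = 2 pools). Of the 18 RMER19B copies with an Rpb2 peak, 10 (55.6%) were shared between the lists, where 19.9% of all Rpb2 LTR peaks and 33.3% of all Rpb2 peaks were, and the difference was not tested.

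Acetylation and polymerase met at a part of the LTR peaks. Of the shared H3K27ac LTR peaks, 268 of 919 (29.2%) overlapped an Rpb2 peak by at least 1 bp, against 55.4% of all shared H3K27ac peaks. Of the shared Rpb2 LTR peaks, 155 of 186 (83.3%) overlapped an H3K27ac peak, against 94.2%. For LINE and SINE peaks the shares were 32% and 41.4% of the shared H3K27ac peaks and 72.4% and 61.0% of the shared Rpb2 peaks. Where the midpoint of the H3K27ac peak had to lie in the Rpb2 peak, 8.38% of the LTR peaks did, against 20.0% of all. By this rule the LTR share was above that of LINE (6.68%) and SINE peaks (3.34%). An LTR peak of one mark overlapped an LTR peak of the other in 178 pairs, made of 163 H3K27ac and 178 Rpb2 peaks, and in 136 pairs both midpoints carried the same element name. Pairs of all overlapping peaks were not tallied, so the counts and correlations of LTR pairs have no background. Of all tested single peaks, 4.95% (H3K27ac) and 12.2% (Rpb2) had an unadjusted p under 0.05 in edgeR's test. Of the 178 pairs, 1 had such a p in both marks, and it was singled out after its values were seen. This was the ORR1A4 copy upstream of Mapk7, where the Rpb2 peak (61498903 to 61499119) had 10 and 18 reads in the WT pools and 272 and 106 in the KO pools, 9.81 ± 2.88 CPM against 45.4 ± 5.74 CPM (SD, n = 2 pools), a log2 difference of 2.2 (SE 0.54, adjusted p = 0.198, edgeR, and 0.0153 without the WT male pool, with a range of 0.00273 to 0.846 over all alternatives). At that copy the KO pools lay above the WT pools in both marks, which its choice by p made likely. The Rpb2 peak came from the KO list alone, so its direction followed from the list. Over all pairs, the log2 differences of the marks had the same sign in 89 of 178, and their Spearman correlation was 0.0831 (0.118 over the 54 pairs shared between the lists in both marks), as a description across sites that lie in the same libraries. The LTR pairs with the highest levels included RLTR4_Mm near 0610039K10Rik, RLTR14-int at Siglech and LTRIS2 near Lilrb4a, an inhibitory receptor gene, where Rpb2 was 58.3 and 120 CPM in WT and 135 and 136 CPM in KO.

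The genes that silence LTR elements were read from a list of 35 symbols, at the highest peak within 1000 bp of the TSS. The list names Fam208a also as Tasor and 2810474O19Rik also as Resf1, so it holds fewer genes than symbols. For H3K27ac, 30 had such a peak, 0 passed the adjusted test and 0 had an unadjusted p under 0.05, with a median log2 fold change of 0.14 against 0.05 over 9904 promoter peaks, of which 3.55% had such a p. For Rpb2, 27 had a peak, 0 passed the adjusted test and 2 had an unadjusted p under 0.05, both lower in KO, with a median of −0.11 against −0.11 over 10125 promoter peaks (10.8%). The 2 were Hdac2, a histone deacetylase gene (22 and 57 reads in the WT pools, 51 and 12 in the KO pools, log2 difference −1.94, SE 0.71, adjusted p = 0.306, edgeR), and Ehmt2, which encodes a histone methyltransferase (53 and 102 reads in the WT pools, 122 and 67 in the KO pools, −1.17, SE 0.44, adjusted p = 0.325, edgeR). Trim28, the corepressor of KRAB zinc finger proteins, held 145 and 256 Rpb2 reads in the WT pools and 506 and 250 in the KO pools (log2 difference −0.57, SE 0.27) and 226 and 414 H3K27ac reads in the WT pools and 1050 and 839 in the KO pools (0.18, SE 0.29). The DNA methyltransferase gene Dnmt1 had 11 and 12 Rpb2 reads in the WT pools and 48 and 28 in the KO pools (0.25, SE 0.84). Setdb1 had 17 and 40 H3K27ac reads in the WT pools and 115 and 90 in the KO pools (0.5, SE 0.82) and no Rpb2 peak listed near its TSS. In H3K27ac, the lowest p of the list belonged to Ezh2 (0.51, SE 0.33), Fam208a (−0.44, SE 0.35) and 2810474O19Rik (0.37, SE 0.3), with adjusted p of 0.811, 0.822 and 0.827 in edgeR's test. With a WT pool left out, some of these genes passed in either mark. Those fits leave 1 WT pool and called many of all peaks, so this was not read as a result on these genes.

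Letters of known binding motifs were counted on both strands in the 200-base windows at peak midpoints of chromosomes 1 to 19, X and Y. The core of PU.1, a factor that macrophages and microglia depend on, was searched as GAGGAAGT and as the shorter GGAAGT that it contains. GAGGAAGT was in 6.36% of 3898 H3K27ac and 6.75% of 934 Rpb2 LTR windows, against 3.27% and 4.02% of the windows of all peaks. It was unevenly spread among elements. ORR1E windows held it at 25.2% of H3K27ac and 25% of Rpb2 peaks, ORR1D2 windows at 24.6% and 30.0%, and ORR1F windows at 13.4% of H3K27ac peaks. MTD windows, the most numerous, held it at 2.23% and 1.41%, and ERVK windows at 2.48% and 1.91%. Copies of one element descend from one sequence, so they are not independent. LTR peaks with these letters were named in both lists in 34.7% (H3K27ac) and 36.5% (Rpb2), against 22.8% and 18.6% of those without, and over all peaks in 50.6% and 40.0% against 37.2% and 33.0%. Their shared peaks had median log2 fold changes of 0.07 and −0.17, against 0.04 and −0.16 for those without the letters. GGAAGT was in 26.2% and 27.5% of LTR windows, against 18.5% and 22.5% of all. The low share of MTD windows did not hold for this shorter form. MTD windows held it at 33.8% (H3K27ac) and 29.6% (Rpb2), MTC windows at 40.8% and 37.5%, and ORR1E windows at 52.4% and 56.2%. ERVK windows held it at 17.7% and 19.8%.

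**Figure D5:**
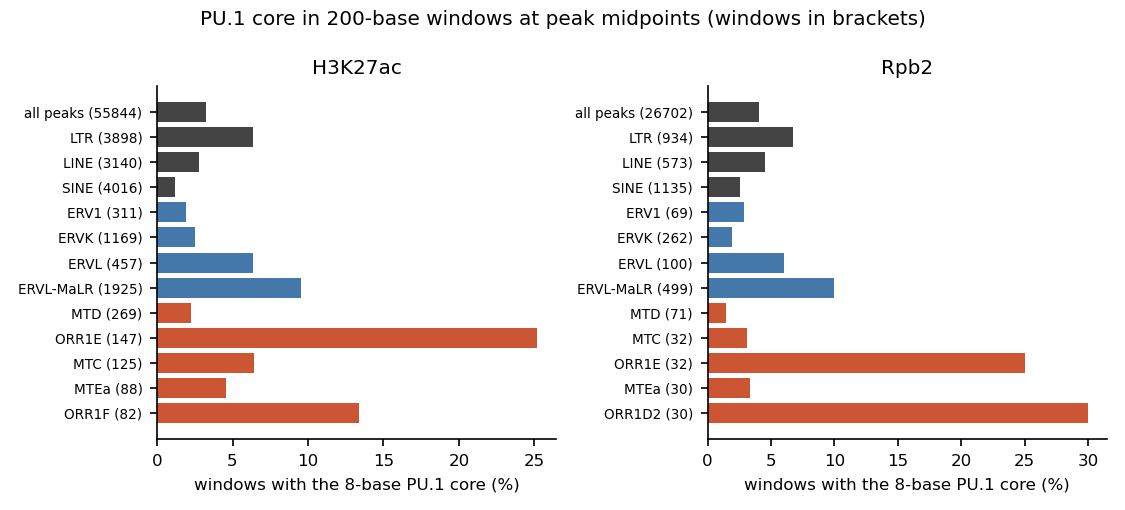
Share of 200-base windows at peak midpoints that hold the longer PU.1 core on either strand (horizontal axis, percent) for H3K27ac (left) and Rpb2 (right). Bars are all peaks and repeat classes, LTR families, and the 5 most frequent elements of the mark, with the number of windows in brackets, and ORR1E stands at 25.2% and 25% against 3.27% and 4.02% of all peaks.

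Among the other motifs, those of promoters and polyadenylation were more frequent in LTR windows than in all windows. The same held for LINE windows, and for SINE windows except for CCAAT. LINE windows held CCAAT at 30.8% (H3K27ac) and 30.5% (Rpb2), TATAAA at 16.2% and 12.2%, and AATAAA at 26.7% and 20.2%. SINE windows held CCAAT at 18.4% and 18.9%, TATAAA at 11.5% and 9.43%, and AATAAA at 26.1% and 23.3%. The shares in LTR and in all windows were 29.1% and 22.9% for CCAAT, 13.8% and 11.0% for TATAAA, 23.1% and 18.4% for the polyadenylation signal AATAAA and 16.1% and 14.2% for the RUNX core TGTGGT in H3K27ac peaks. In Rpb2 peaks they were 24.5% and 19.3% for CCAAT, 12.6% and 6.41% for TATAAA, 16.5% and 9.67% for AATAAA and 13.8% and 13.1% for TGTGGT. All 3 RMER19B windows printed above hold TATAAA on one strand, and 18.3% of ERVK and 20.3% of ERV1 windows of Rpb2 did. The AP-1 site TGANTCA was in 5.93% (H3K27ac) and 6.21% (Rpb2) of LTR windows, against 5.85% and 4.62% of all, and in 10.3% and 11.0% of ERVL windows. The IRF site GAAANNGAA was in 6.95% and 7.28%, against 7.37% and 5.35% of all. The C/EBP site TTGCNNAA (7.7% and 6.85% of LTR windows, 7.82% and 6.39% of all) and the NF-kB site GGGANTTTC (0.693% and 0.642%, against 0.72% and 0.667%) were near the shares of all windows. LTR windows had a median GC content of 46.0% (H3K27ac) and 48.5% (Rpb2), against 48% and 54.0% of all windows, and held 1.9 and 2.56 CpG on average, against 4.69 and 8.35. All windows include promoters, where the annotation names no repeat. LINE windows had 43.0% and 46.5% GC with 1.44 and 2.08 CpG, and SINE windows 46.0% and 47.0% with 2.08 and 2.04. A match of letters is a description and not a bound site.

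The reads kept by the study were those that mapped to 1 place, which limits young elements with many near-identical copies. The 51 bases at the midpoint occurred once in the chromosomes for 97% of H3K27ac and 98.3% of Rpb2 LTR peaks, against 98.3% and 99.3% of all peaks. The share was 98.0% and 99.4% for ERVL-MaLR, 95.3% and 96.2% for ERVK and 94.5% and 95.7% for ERV1. Copies at which no read can be placed have no peak and were not counted here.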

How the data were processed

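Microglial H3K27ac and Rpb2 were profiled by single-end ChIP-seq of 51 cycles. From the deposited tables of the authors, the counts are raw numbers of reads per peak, without normalization. Per the labels and the methods, reads were mapped to mm10 with Bowtie2 and peaks were called by genotype, merged, counted and annotated with HOMER, which assigns the repeat at the peak midpoint. Reads of 1 mapped place were kept. Of the series, 4 input libraries were not analysed here.

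Library totals came from the headers of the tables. Counts were normalized with TMM factors and tested in edgeR 4.0.16 (R 4.3.3) over all peaks that averaged 4 or more reads in either genotype, with Benjamini-Hochberg adjustment at 0.05. CPM of single peaks use the reads in tested peaks after TMM. Pools of a sex are different mice, so sex labels do not pair the libraries. Alternatives used limma 3.58.1, DESeq2 1.42.0, other filters and sets of peaks, and each pool left out. The edgeR test was run first on simulated data, with 1 common dispersion for every peak. Of 200 planted 4-fold changes it recovered 0 (H3K27ac) and 68 (Rpb2) over all peaks. Over shared peaks alone it recovered 112 and 189 of 200. A lack of calls therefore does not show a lack of change. With 2 pools per genotype, p-values measure the spread between these pools alone. A count of 0 allows up to 3 reads per library, which covers counting error only.

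Windows were read from GRCm38.p6 by coordinate (22 peaks on other contigs, 1 of them an LTR peak, were left out). Regions were named by rule: called peaks, the 5 shared peaks with the lowest p and the 5 highest, the 3 peaks of 1 list with the lowest p, the highest within 1000 bp of a TSS and among overlapping LTR peaks of both marks, and of each family with 10 or more members. The members, lists and tests were chosen with earlier results of these data known. Marker genes were looked up by overlap with the gene start of GENCODE vM21, after it was seen that midpoints of broad peaks lie far from it. One further microglial marker of the list is not reported here.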

Additional observations from a re-analysis of the deposited data

Results flagged for a closer look

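In 4 measures of LTR peaks the difference of KO and WT had opposite signs in the female and male pools. With 1 pool per genotype and sex the difference between the sexes was not tested, and in Rpb2 the library labelled WT female went against its label. The median log2 ratio of KO over WT over the 919 shared H3K27ac LTR peaks was 0.26 in females and −0.13 in males. The LTR share of the reads in shared H3K27ac peaks was 0.27 percentage points higher in KO in females and differed by −0.19 points in males, and in the H3K27ac peaks of the WT list alone it differed by −2.14 points in females and was 0.66 points higher in KO in males. In shared Rpb2 peaks it differed by −0.05 points in females and by 0.04 points in males. The H3K27ac values of the females rest on the WT female library, which had 15.9% of its reads in peaks, against 61.1% to 65.3% in the others; its part in the differences was not tested.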

How the results depend on the processing

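The number of LTR peaks past the adjusted threshold moved with the tool, the filter and single libraries. For H3K27ac (1 as reported), it was 0 with total reads as library size, with DESeq2's prior, with at least 10 reads in every sample, with shared peaks alone, with peaks near a TSS alone and with edgeR's newer quasi-likelihood method (added after seeing the data), and 19 with DESeq2 without prior. With 1 pool left out it ran from 0 to 711 (14.8% of all peaks were called at 711), with 40 without the WT female pool (1.53% of all). For Rpb2 (0 as reported), it was 1 with total reads and 1 with the sex label as a replicate block (ORR1B1 near Klhl25), 2 with at least 10 reads in every sample, 34 and 39 with DESeq2 without and with prior (3.83% and 3.95% of all peaks were called) and 10 with the newer method (1.02% of all), and ran from 0 to 108 with 1 pool left out (7.35% of all at 108), with 106 without the WT female pool (8.28% of all). Under the block 1 H3K27ac LTR peak was called. The calls with 1 WT pool assume that the lone pool varies like the KO pools, and the cause of their number was not tested.

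The median log2 fold change of shared LTR peaks minus that of all shared peaks was 0.0 in both marks and −0.42 in the fit of H3K27ac peaks near a TSS, which holds 20 LTR peaks. It ran from −0.11 to 0.16 (H3K27ac) and from −0.07 to 0.02 (Rpb2) with 1 pool left out. Scaling by total reads moved the medians themselves to 0.64 for shared H3K27ac LTR peaks and 0.71 for all, and to 0.17 and 0.16 for Rpb2, so changes are given relative to all peaks. Of the silencing genes, 0 to 4 (H3K27ac) and 0 to 1 (Rpb2) passed the adjusted test with 1 pool left out. Of the shared H3K27ac LTR peaks, 8.38% overlapped an Rpb2 peak by their midpoint, against 29.2% by 1 bp. Among named peaks, MLT1C near Gm5532 reversed to 4.75 without the WT female pool.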
